A study of Mus musculus with 14 samples.

Results

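Amino acids cross the membranes of cells through solute carriers. Here 6 families of these genes are described in libraries of cultured mouse spleen cells and of cells sorted as CD8+ from tumours and spleens. The members were all genes whose symbol places them in the SLC1, SLC3, SLC7, SLC36, SLC38 or SLC43 family and that had a row in both deposited tables, which gave 42 of 55291 symbols. Messenger RNA was sequenced in 14 libraries, all from mice labelled wild type. One experiment used cultures of whole spleen cells from OT-1 mice, a transgenic strain with a T cell receptor against an ovalbumin peptide. These were stimulated with that peptide at 1 µg/mL, grown for 3 days with interleukin-2 at 200 U/mL, then split and grown on for 4 days. They received ND-646 at 100 nM (n = 4), which inhibits acetyl-CoA carboxylase, or DMSO as vehicle (n = 4). A sort of the cultured cells before RNA extraction is not mentioned. The other experiment used CD8+ T cells that were enriched and sorted from MCA205 fibrosarcomas, 14 days after the tumour cells were placed under the skin of C57BL/6 mice (n = 3), or from spleens harvested with them (n = 3). Ages of the mice are not given in the labels. The tumour samples are described as pooled, with no number of mice. Since nothing states that replicates were separate cultures or animals, the p-values describe only how far these libraries spread, and that spread may be technical.

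Many carriers of the SLC7 family are light chains that reach the cell surface only when joined to a heavy chain of the SLC3 family. CD98 (Slc3a2) is the heavy chain of LAT1 (Slc7a5), which brings in leucine and other large neutral amino acids in exchange for others such as glutamine. ASCT2 (Slc1a5) and the SNAT carriers of the SLC38 family move glutamine and small neutral amino acids with sodium. CAT1, CAT2 and CAT3 (Slc7a1, Slc7a2 and Slc7a3) carry arginine and lysine. T cells are known to raise LAT1, CD98 and ASCT2 after activation, and growth of activated T cells depends on LAT1. PAT1, SNAT7 and SNAT9 (Slc36a1, Slc38a7 and Slc38a9) act at the lysosome, where SNAT9 takes part in sensing arginine for the kinase complex mTORC1.

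Library totals, in units of 1000000 estimated counts, were 27.9 to 33.8 in ND-646, 23.5 to 29.0 in vehicle, 19.6 to 21.02 in tumour and 19.8 to 20.8 in spleen libraries. Levels below are in CPM, counts per 1000000, scaled within each table by the trimmed mean of M-values (TMM). The summed level of 17 CD8 T cell identity genes was 8208 to 8450.4 CPM in ND-646 and 8291 to 8500.3 CPM in vehicle libraries, and 5634 to 7534 CPM in tumour and 12336 to 12446 CPM in spleen libraries, where 16 of the 17 were called lower in tumours. Cd8a, the CD8 alpha chain, stood at 963 ± 164 CPM in tumour and 1549.8 ± 17.8 CPM in spleen libraries (SD, n = 3 each). The tumour libraries also held RNA typical of connective tissue. The summed level of 24 fibroblast and fibrosarcoma markers was 16780.4 to 22380.1 CPM in tumour and 1496 to 1529 CPM in spleen libraries, and 22 of the 23 tested were higher. The most abundant of them, Vim, is also made by T cells, but Col1a1, a collagen chain, was at 1504 ± 360.0 CPM in tumour and 1.05 ± 0.252 CPM in spleen libraries (SD, n = 3 each). The 20 macrophage, monocyte and neutrophil markers summed to 709 to 800.4 CPM in tumour and 349.7 to 365 CPM in spleen libraries, with 10 of 15 tested higher. In the cultures the myeloid list summed to 88.1 to 98.3 CPM in ND-646 and 325 to 340.5 CPM in vehicle libraries, where 7 of 9 tested markers were lower with ND-646 and C1qc, Csf3r, S100a8 and S100a9 were at 0 in all 8. Fibroblast markers, mostly Vim, summed to 2537 to 2685 CPM in ND-646 and 3791 to 4108 CPM in vehicle libraries, with Col5a1 and Lox at 0. Markers of B and plasma cells summed to 149 to 174 CPM in ND-646, 116 to 132 CPM in vehicle, 94.8 to 103 CPM in tumour and 829.8 to 862 CPM in spleen libraries. In the cultures 5 of the 7 tested were lower with ND-646 and 1, Ighm, was higher and made up most of the sum, and in tumours 6 of 7 were lower. Markers of CD4 and regulatory T cells summed to 881 to 906 CPM in ND-646 and 1299 to 1321 CPM in vehicle libraries, with 5 of 7 lower. They summed to 371 to 493 CPM in tumour and 39.5 to 44.0 CPM in spleen libraries, with 4 of 7 higher. Endothelial markers summed to 51.7 to 60.1 CPM in tumour and 160.4 to 171 CPM in spleen libraries, although 6 of 7 tested were higher. Markers of NK and gamma delta T cells summed to 96.3 to 113 CPM in tumour and 115 to 125 CPM in spleen libraries, with 6 of 8 higher. In the cultures 5 of 7 of these NK markers were lower with ND-646, as were 3 of 6 dendritic cell markers, of which 4 of 8 were higher in tumours. In the CD4 and regulatory list the most abundant marker was Il2ra in ND-646 and Ctla4 in tumour libraries. In the myeloid list it was Spp1 in ND-646 and in tumour libraries. Whether CD8 T cells themselves made Il2ra, Ctla4 or Spp1 was not tested, so these sums need not stand for other cells. Thy1 is in both the CD8 identity and the fibroblast list. Sums are weighted towards their most abundant genes, so they need not follow the numbers of such cells. In bulk RNA of this kind, fewer cells of a type and less RNA per cell cannot be told apart. The part of these other cells in the results below was not tested.

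Of the 42 members, 22 had enough counts to be tested in the culture table and 23 in the tumour and spleen table, 21 of them in both. A further 18 were tested in neither. Among these, Slc1a6, Slc36a2, Slc7a10, Slc7a12, Slc7a13 and Slc7a15 had no count in any of the 14 libraries. The rest were glutamate carriers best known from the nervous system (Slc1a1, Slc1a2, Slc1a3 and Slc1a7), carriers best known from kidney, liver or brain (Slc7a8, Slc7a9, Slc7a14, Slc38a3, Slc38a4 and Slc38a5), and Slc36a3 and Slc38a11. The highest group mean among them was 0.502 CPM, for Slc1a2 in vehicle libraries. Slc3a1, the heavy chain rBAT, had enough counts only in the tumour and spleen table, as did Slc7a2, and Slc38a8 only in the cultures. The library kit marks strand, but whether counting used it is not given in the labels. Of the tested members, Slc38a10, Slc38a9, Slc3a1, Slc43a2, Slc7a2, Slc7a4 and Slc7a7 overlap a gene on the opposite strand in GENCODE M21, so their levels may include reads of that neighbour.

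Levels of different genes were compared per kilobase of transcript. In ND-646 and in vehicle libraries the highest member was Slc1a5, at 196 and 198 CPM per kilobase. Slc7a5 and Slc3a2 followed, at 172 and 173 in ND-646 and at 158 and 148 in vehicle libraries. These neighbours overlapped in both groups, with Slc7a5 at 163 to 181 and Slc3a2 at 166 to 179.9 CPM per kilobase across ND-646 libraries. Slc38a2, the system A carrier SNAT2, came next at 68.6 in ND-646 and 56.3 in vehicle libraries. In tumour libraries Slc38a2 was at 136 to 153 and Slc3a2 at 133 to 147 CPM per kilobase, which overlap, and Slc1a5 followed at 80.0 to 92.3. In spleen libraries Slc1a5 led at 112 to 116, ahead of Slc3a2 at 56.9 to 58.6, and Slc7a5 stood at 20.4 to 22.5 CPM per kilobase.

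**Figure D1:**
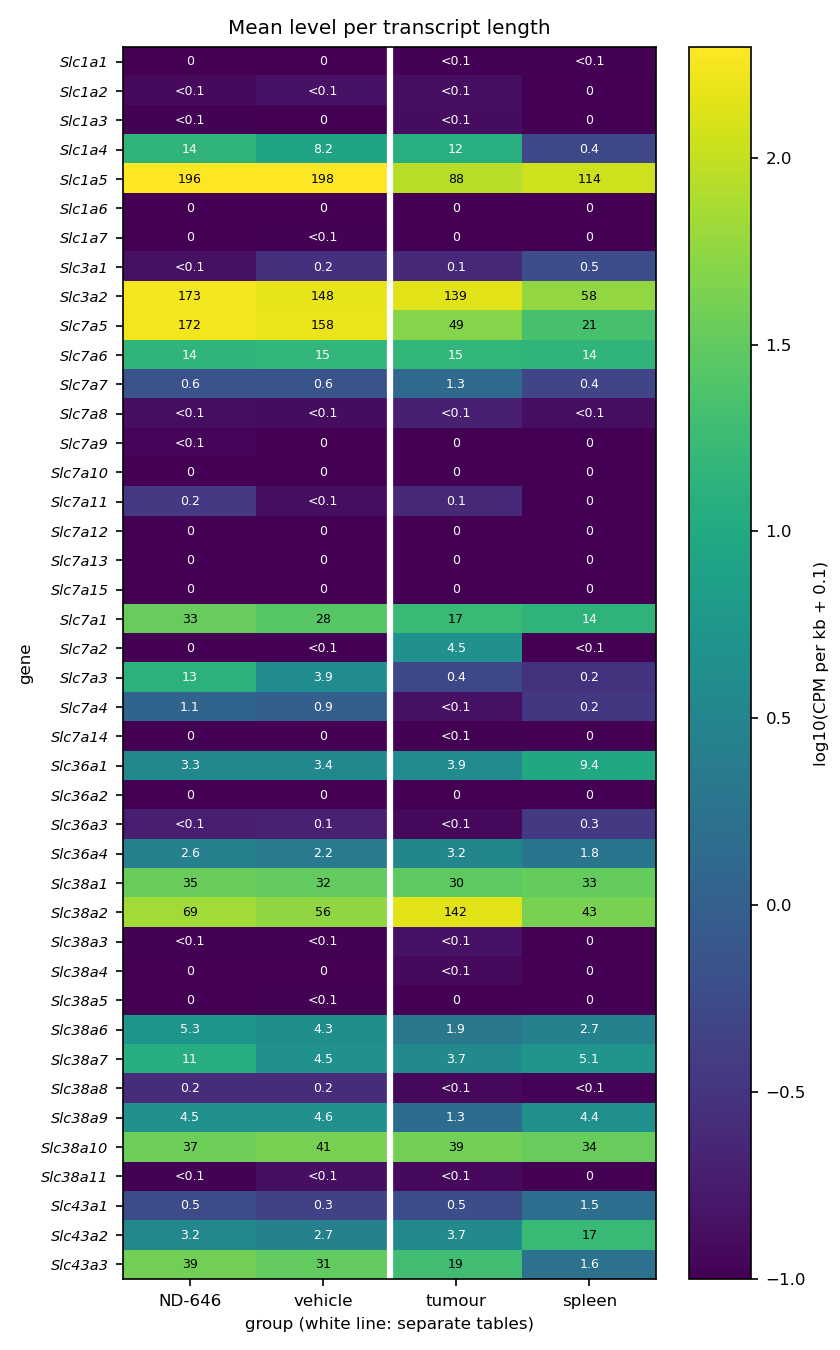
Mean level of all 42 members in ND-646, vehicle, tumour and spleen libraries (columns), as CPM per kilobase of transcript, with the colour on a log10 scale after adding 0.1 and the linear value printed in each cell. Slc1a5, Slc3a2, Slc7a5 and Slc38a2 are the brightest rows, while 6 members are at 0 in every group.

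The CD98 heavy chain and LAT1 stood in different proportions in the tables. Per length, Slc3a2 divided by Slc7a5 gave 0.948 to 1.10 in ND-646 libraries, 0.887 to 0.967 in vehicle, 2.65 to 2.95 in tumour and 2.53 to 2.87 in spleen libraries. The cultures and the sorted cells were processed as separate tables, so values set side by side across them are a description with no test. Slc3a2 also serves as the heavy chain of other light chains, of which Slc7a6 (y+LAT2) was at 14.2, 15.1, 15.0 and 14.0 CPM per kilobase in ND-646, vehicle, tumour and spleen libraries. Summed over all members, the level was 2796 to 2900.4 CPM in ND-646 and 2472 to 2614 CPM in vehicle libraries, and 2110.0 to 2179 CPM in tumour and 1489 to 1520.1 CPM in spleen libraries.

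The comparison of ND-646 with vehicle asked how mRNA levels changed when acetyl-CoA carboxylase, the enzyme that commits acetyl-CoA to fatty acid synthesis, was inhibited throughout the culture. ND-646 cultures held more mRNA of the arginine carrier CAT3 (Slc7a3), of the lysosomal glutamine exporter SNAT7 (Slc38a7), of the cystine carrier xCT (Slc7a11) and of ASCT1 (Slc1a4). The carriers that dominated the cultures rose by small amounts or passed no test. Of the 22 members tested, 13 rose and 1 fell by edgeR's test (called at an adjusted p of 0.05), against 29.8% of all 14251 genes tested called higher and 26.5% called lower. Higher calls made up 59.1% and lower calls 4.55% of the tested members. Calls in either direction were 63.6% of the members, near the 56.3% of all genes. The median log2 fold change was 0.25 over the tested members and 0.01 over all genes tested, and 3 members against 7.00% of all genes were called with at least a 2-fold change.

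Among the cationic carriers, Slc7a3 stood at 39.4, 28.9, 34.4 and 42.2 CPM in ND-646 libraries, against 11.3, 10.4, 10.9 and 10.4 CPM in vehicle libraries. The groups did not overlap, and the lowest ND-646 library was more than 2-fold above the highest vehicle library (log2 fold change 1.75 ± 0.11 SE, edgeR adjusted p = 5.89e-08). CAT1 (Slc7a1), the more abundant arginine carrier per length, stood at 225, 243, 245 and 243 CPM in ND-646 libraries, against 207, 203, 188 and 201 CPM in vehicle libraries. Its ND-646 libraries were all higher (log2 fold change 0.26 ± 0.04 SE, edgeR adjusted p = 2.35e-05), by much less than Slc7a3. Slc7a2 had no count in the 4 ND-646 libraries and 1 count in the vehicle libraries, where a count of 0 allows up to 0.0878 to 0.106 CPM per ND-646 library. Slc7a4, a CAT-like protein whose substrate is not settled, was at 3.49 ± 0.462 CPM in ND-646 and 2.92 ± 0.426 CPM in vehicle libraries (SD, n = 4 each), which overlapped (edgeR adjusted p = 0.130).

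Among the heavy and light chains, the largest fold belonged to the scarce Slc7a11, at 2.26, 2.17, 1.76 and 2.94 CPM in ND-646 libraries, against 0.450, 0.315, 0.258 and 0.213 CPM in vehicle libraries. Its libraries did not overlap, and its vehicle level rested on 31 counts in all. It had enough counts to be tested through its 4 ND-646 libraries, as only 1 vehicle library reached the filter's limit. Its log2 fold change of 2.86 ± 0.26 SE is therefore a description, and the gene is counted among the 13 called higher. Slc3a2 stood at 327, 302, 312 and 320.2 CPM in ND-646 libraries, against 274, 285, 256 and 259.9 CPM in vehicle libraries, higher in every ND-646 library (log2 fold change 0.23 ± 0.04 SE, edgeR adjusted p = 1.01e-04). Slc7a5 stood at 575, 601, 636 and 602 CPM in ND-646 libraries, against 562, 569, 523 and 566 CPM in vehicle libraries, where the lowest ND-646 library lay just above the highest vehicle library (log2 fold change 0.12 ± 0.04 SE, edgeR adjusted p = 0.0183). That small difference was no longer called without vehicle replicate 3 (adjusted p = 0.0748) or ND-646 replicate 3 (adjusted p = 0.0771), nor without ND-646 libraries 2 and 3 together (adjusted p = 0.0906). Slc7a6 stood at 51.1, 54.0, 53.3 and 54.0 CPM in ND-646 libraries, against 58.0, 57.0, 54.3 and 56.9 CPM in vehicle libraries. The ND-646 libraries all lay below, and the difference was not called (log2 fold change -0.09 ± 0.04 SE, edgeR adjusted p = 0.0640), although it passed with other scaling factors (RLE, adjusted p = 0.0332). Slc7a7 (y+LAT1), at 1.35 CPM in ND-646 and 1.40 CPM in vehicle libraries, passed no test (edgeR adjusted p = 0.891). Slc3a1, which had too few counts to be tested in the cultures, was lower in every ND-646 library, at 0.0668, 0.122, 0.0384 and 0.147 CPM in ND-646 libraries, against 0.494, 0.636, 0.151 and 0.338 CPM in vehicle libraries. The same held for the glutamate carrier Slc1a2, at 0.255, 0.322, 0.141 and 0.248 CPM in ND-646 libraries, against 0.450, 0.490, 0.344 and 0.725 CPM in vehicle libraries. Both separations were narrow. The closest libraries of Slc3a1, ND-646 4 and vehicle 3, held 4.15 and 3.52 counts. Those of Slc1a2, ND-646 2 and vehicle 3, held 11.0 and 8 counts. Both genes had few counts and were picked after values were seen, so these differences are descriptions.

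The 2 neutral exchangers of the SLC1 family differed. Slc1a4 (ASCT1), which exchanges alanine, serine, cysteine and threonine, stood at 59.4, 54.3, 54.9 and 56.8 CPM in ND-646 libraries, against 31.8, 33.0, 31.8 and 32.3 CPM in vehicle libraries. Every ND-646 library was above every vehicle library (log2 fold change 0.81 ± 0.04 SE, edgeR adjusted p = 3.79e-11). Slc1a5 (ASCT2) stood at 535, 536, 548 and 554 CPM in ND-646 libraries, against 543, 580.4, 516 and 545 CPM in vehicle libraries. These groups overlapped fully (log2 fold change -0.01 ± 0.04 SE, edgeR adjusted p = 0.879), and over all alternatives tried the log2 fold change of Slc1a5 stayed between -0.03 and 0.03.

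Of the 7 SLC38 members tested, 4 rose and 1 fell. Slc38a7 stood at 39.6, 35.1, 34.2 and 39.9 CPM in ND-646 libraries, against 15.2, 14.4, 14.8 and 16.1 CPM in vehicle libraries, without overlap (log2 fold change 1.30 ± 0.06 SE, edgeR adjusted p = 9.60e-12), which gave it the smallest p-value of all members in the cultures. The system A carriers Slc38a2 (SNAT2) and Slc38a1 (SNAT1) rose less. Slc38a2 stood at 313, 313, 316 and 337 CPM in ND-646 libraries, against 264, 261, 265 and 258 CPM in vehicle libraries (log2 fold change 0.29 ± 0.04 SE, edgeR adjusted p = 2.07e-06). Slc38a1 stood at 241, 259.7, 266 and 259 CPM in ND-646 libraries, against 238, 223, 232 and 232 CPM in vehicle libraries (log2 fold change 0.15 ± 0.04 SE, edgeR adjusted p = 0.00296). Neither gene's groups overlapped, though the lowest ND-646 library of Slc38a1 exceeded the highest vehicle library by little. Slc38a6 (SNAT6), a carrier of less certain function, stood at 15.1, 16.5, 16.6 and 15.6 CPM in ND-646 libraries, against 11.6, 13.7, 14.0 and 12.7 CPM in vehicle libraries. It was higher in every ND-646 library (log2 fold change 0.29 ± 0.07 SE, edgeR adjusted p = 0.00162).

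Slc38a10 (SNAT10) was the member that fell, at 176, 169.7, 169.9 and 163 CPM in ND-646 libraries, against 189, 192, 182 and 189 CPM in vehicle libraries. The libraries did not overlap (log2 fold change -0.15 ± 0.04 SE, edgeR adjusted p = 0.00204). Its estimated counts were not whole numbers in any of the 14 libraries, so part of its reads may have been divided with other transcripts. The arginine sensor Slc38a9 stood at 36.6, 44.2, 43.1 and 35.8 CPM in ND-646 libraries, against 39.4, 39.1, 42.5 and 42.4 CPM in vehicle libraries, which overlapped (log2 fold change -0.03 ± 0.07 SE, edgeR adjusted p = 0.727). ND-646 libraries 1 and 4 were low and libraries 2 and 3 high for that gene. Slc38a8 was scarce, at 0.428 CPM in ND-646 and 0.432 CPM in vehicle libraries (edgeR adjusted p = 0.997).

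The proton-coupled carriers and the SLC43 facilitators differed by small amounts. Slc36a1 (PAT1) stood at 18.0, 17.8, 17.2 and 16.9 CPM in ND-646 libraries, against 17.3, 16.1, 18.6 and 18.7 CPM in vehicle libraries, which overlapped (log2 fold change -0.01 ± 0.06 SE, edgeR adjusted p = 0.884). Slc36a4 (PAT4) stood at 15.7, 17.5, 17.9 and 17.2 CPM in ND-646 libraries, against 15.6, 14.3, 14.0 and 14.8 CPM in vehicle libraries, where the ND-646 libraries were higher by a narrow margin (log2 fold change 0.22 ± 0.07 SE, edgeR adjusted p = 0.00824). That call was lost without ND-646 libraries 2 and 3 together (adjusted p = 0.0686). Slc43a3, reported to carry purine nucleobases and so a member by family name more than by substrate, stood at 95.6, 94.8, 106 and 102 CPM in ND-646 libraries, against 79.3, 79.0, 81.9 and 84.1 CPM in vehicle libraries. Its groups were well apart (log2 fold change 0.30 ± 0.04 SE, edgeR adjusted p = 1.04e-05). Slc43a2 (LAT4), which lets large neutral amino acids out of cells, stood at 23.5, 19.995, 21.1 and 28.3 CPM in ND-646 libraries, against 19.2, 16.98, 21.3 and 18.6 CPM in vehicle libraries. Its groups overlapped, and its call (log2 fold change 0.29 ± 0.11 SE, edgeR adjusted p = 0.0358) was lost without vehicle replicate 1, 2 or 4 and without ND-646 replicate 1 or 4, with adjusted p up to 0.120. Without ND-646 libraries 1 and 4 together its log2 fold change was 0.10 (adjusted p = 0.296). The related Slc43a1 (LAT3), at 1.17 CPM in ND-646 and 0.861 CPM in vehicle libraries, was not called (edgeR adjusted p = 0.143), but passed without ND-646 replicate 3 (adjusted p = 0.0445) and without ND-646 libraries 2 and 3 together (adjusted p = 0.0409). Scaled by the CD8 identity genes in place of TMM, 13 members again rose and 1 fell.

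**Figure D2:**
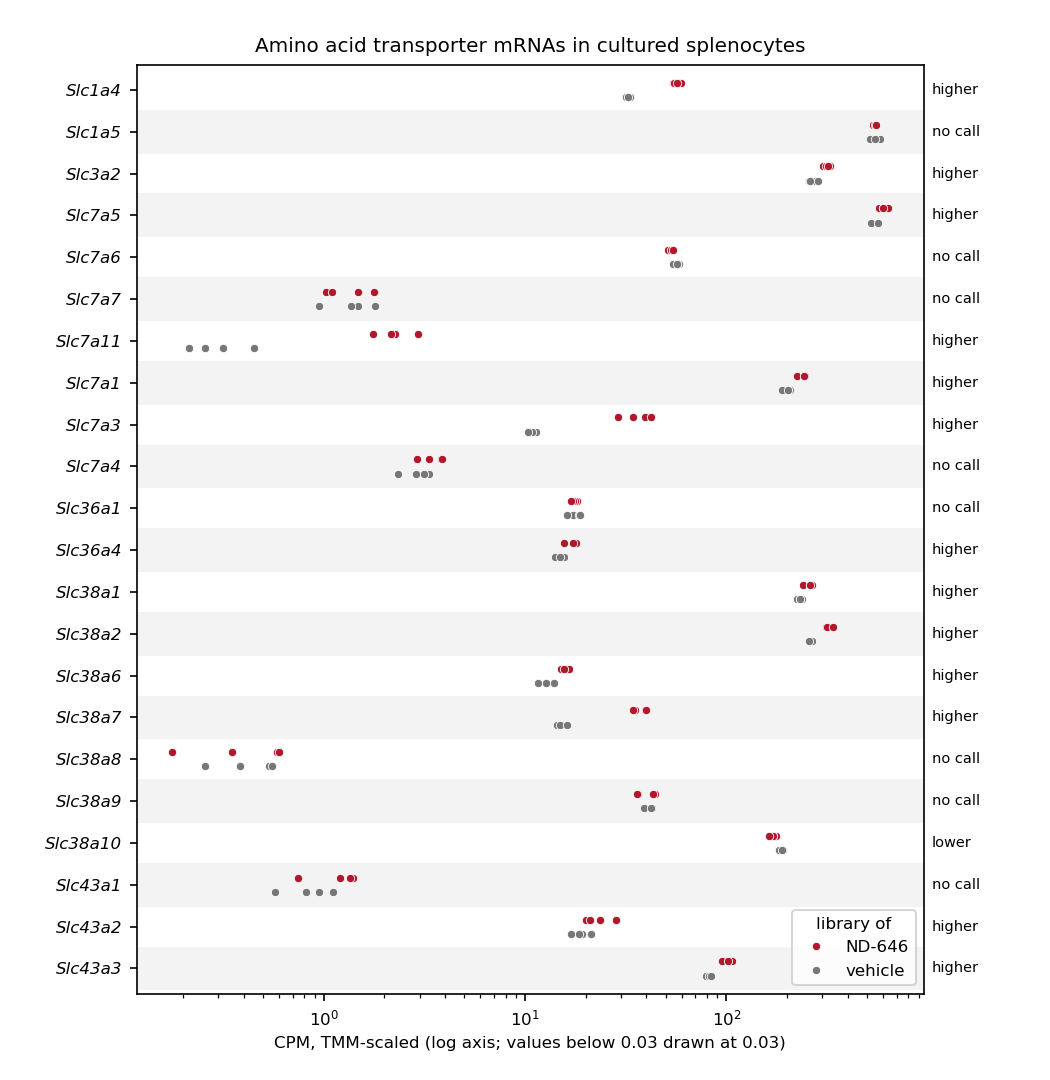
CPM of the 22 members tested in the cultures, on a log axis, 1 point per library, with ND-646 above vehicle in each row and the call of edgeR's test at the right. Slc7a3, Slc38a7, Slc7a11 and Slc1a4 show the widest gaps, and Slc1a5, Slc36a1 and Slc38a9 overlap.

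The promoters of the 3 members with the smallest p-values in the cultures are shown, a choice made without regard to direction. All 3 genes rose. Each runs from 250 bases before to 50 bases after the transcript start in RefSeq (GRCm38.p6), on the gene's strand. Of all members, 31 had an entry in that table. Capitals mark matches on either strand to TGATGNAAN, the composite element that ATF4 and C/EBP proteins are known to bind, or to CACGTG, the E-box that MYC, TFEB and related proteins are known to bind.
Slc38a7 (chr8:95853442-95853741, minus strand): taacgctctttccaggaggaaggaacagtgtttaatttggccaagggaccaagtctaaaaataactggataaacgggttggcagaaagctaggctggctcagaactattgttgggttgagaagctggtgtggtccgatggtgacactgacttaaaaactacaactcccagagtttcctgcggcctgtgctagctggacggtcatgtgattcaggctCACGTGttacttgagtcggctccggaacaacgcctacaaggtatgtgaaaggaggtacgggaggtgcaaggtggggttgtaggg
Slc1a4 (chr11:20332664-20332963, minus strand): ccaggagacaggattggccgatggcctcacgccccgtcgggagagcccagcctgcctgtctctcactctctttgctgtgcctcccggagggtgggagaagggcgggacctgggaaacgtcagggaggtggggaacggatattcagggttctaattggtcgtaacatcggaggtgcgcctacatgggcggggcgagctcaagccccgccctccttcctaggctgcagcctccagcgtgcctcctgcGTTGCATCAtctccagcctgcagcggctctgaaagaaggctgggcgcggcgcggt
Slc7a11 (chr3:50443564-50443863, minus strand): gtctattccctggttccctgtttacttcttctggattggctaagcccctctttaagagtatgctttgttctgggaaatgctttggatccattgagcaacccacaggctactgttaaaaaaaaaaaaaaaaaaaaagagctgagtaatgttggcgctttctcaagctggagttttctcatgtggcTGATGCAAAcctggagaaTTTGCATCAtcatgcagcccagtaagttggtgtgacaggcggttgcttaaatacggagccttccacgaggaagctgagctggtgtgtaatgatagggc
The Slc7a11 window held TGATGNAAN at base 185 on the printed strand and at base 203 on the other, counted from 1 at the left end. The Slc1a4 window held it at base 246 on the other strand, across the transcript start, and the Slc38a7 window held CACGTG at base 217. TGATGNAAN occurred in 3.95% and CACGTG in 7.15% of 32851 promoter windows of the same length, counted by window. Members are counted by gene, with a match in any window, and some had several windows, so these counts are not alike. Among the 31 members, TGATGNAAN was found for 3, Slc1a4, Slc7a11 and Slc7a7, and CACGTG for 7, of which Slc1a6, Slc1a7, Slc38a5 and Slc7a14 had too few counts to be tested in either table. The tested members with CACGTG were Slc38a7, Slc36a1 and Slc43a1. Of these, Slc36a1 and Slc43a1 were not called with ND-646, and all 3 were called lower in tumours with TMM. Slc7a7 was not called in the cultures and was called higher in tumours. A match describes the letters and does not show that a factor was bound.

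Other genes of amino acid handling in the cultures were counted by list, to be read against the shares of all genes called higher and lower given above. Of amino acid carriers outside the 6 families, 7 rose and 4 fell of 22 tested (median log2 fold change 0.08). Slc6a9, the glycine carrier GlyT1, stood at 44.6 ± 5.07 CPM in ND-646 and 14.5 ± 1.197 CPM in vehicle libraries (SD, n = 4 each), and Sfxn1, which carries serine into mitochondria, had a log2 fold change of -0.48 ± 0.04 (SE; edgeR adjusted p = 4.23e-08). In the list of the amino acid response through ATF4, 16 rose and 4 fell of 21 tested (median log2 fold change 0.42). Its smallest p-values were those of Stc2, a secreted glycoprotein, at 2.41 ± 0.04 (SE; edgeR adjusted p = 6.31e-18), and Nupr1, a small stress protein, at 1.73 ± 0.06 (SE; edgeR adjusted p = 1.28e-13).

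Among mTORC1 and lysosomal sensing genes, 20 rose and 10 fell of 43 tested (median log2 fold change 0.12), with Flcn, which acts on the Rag GTPases, at 0.62 ± 0.04 (SE; edgeR adjusted p = 4.61e-10) and the leucine sensor Sesn2 at 0.43 ± 0.05 (SE; edgeR adjusted p = 2.96e-07). Enzymes of amino acid breakdown and synthesis moved both ways, as 14 rose and 8 fell of 32 tested (median log2 fold change 0.06). Odc1, which makes putrescine from ornithine, was at -0.83 ± 0.05 (SE; edgeR adjusted p = 9.36e-11), and Cth, which makes cysteine, at 2.04 ± 0.11 (SE; edgeR adjusted p = 5.71e-10). Of the cytosolic aminoacyl-tRNA synthetases, 7 rose and 5 fell of 22 tested (median log2 fold change 0.02), with the glutamyl-prolyl enzyme Eprs at 0.58 ± 0.04 (SE; edgeR adjusted p = 7.39e-10) and the histidyl enzyme Hars at -0.33 ± 0.04 (SE; edgeR adjusted p = 9.21e-07). Of regulators known to act on these carriers, 10 rose and 6 fell of 21 tested (median log2 fold change 0.02). Nfe2l2 (NRF2), which is known to act on the gene of xCT, stood at 58.2 ± 3.00 CPM in ND-646 and 28.9 ± 1.78 CPM in vehicle libraries (SD, n = 4 each), and Epas1 (HIF-2 alpha) had a log2 fold change of -1.93 ± 0.10 (SE; edgeR adjusted p = 4.35e-11).

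The second comparison set libraries of cells sorted as CD8+ from the fibrosarcomas against those from spleens. The tumour libraries contained much more mRNA of the arginine carrier CAT2 (Slc7a2), of ASCT1 (Slc1a4), of Slc43a3 and of SNAT2 (Slc38a2), and more of CD98 and LAT1. They held less of LAT4 (Slc43a2), of the arginine sensor SNAT9 (Slc38a9) and of PAT1 (Slc36a1). Of the 23 members tested, 11 rose and 9 fell, that is 47.8% and 39.1%, against 43.6% of all 15042 genes tested called higher and 40.2% called lower. Calls in either direction covered 87.0% of the members and 83.8% of all genes, so the share of members called was near the background. The median log2 fold change was 0.23 over the tested members and 0.03 over all genes, and its median size 1.27 and 0.92. Slc7a2 and Slc7a11 had enough counts only through the tumour libraries, and Slc3a1 and Slc7a4 only through the spleen libraries. The filter kept each of these for the group where it was high, so its call is a description. Without these 4 the counts were 9 higher and 7 lower of 19.

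Directions in this comparison depended on the scaling. Scaled by the 17 CD8 identity genes in place of TMM, the log2 fold changes of all genes shifted by a median of 0.90, and 83.7% of calls were higher, against 52.0% with TMM. With that scaling 16 members rose and 5 fell. Slc1a5, Slc38a6 and Slc38a7, called lower with TMM, then had log2 fold changes of 0.52, 0.38 and 0.43, above 0. Slc43a2, Slc38a9 and Slc36a1 were called lower under both scalings, as were Slc3a1 and Slc7a4, which were tested only through spleen libraries. Whether a T cell holds the same amount of these identity genes in both tissues was not tested.

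**Figure D3:**
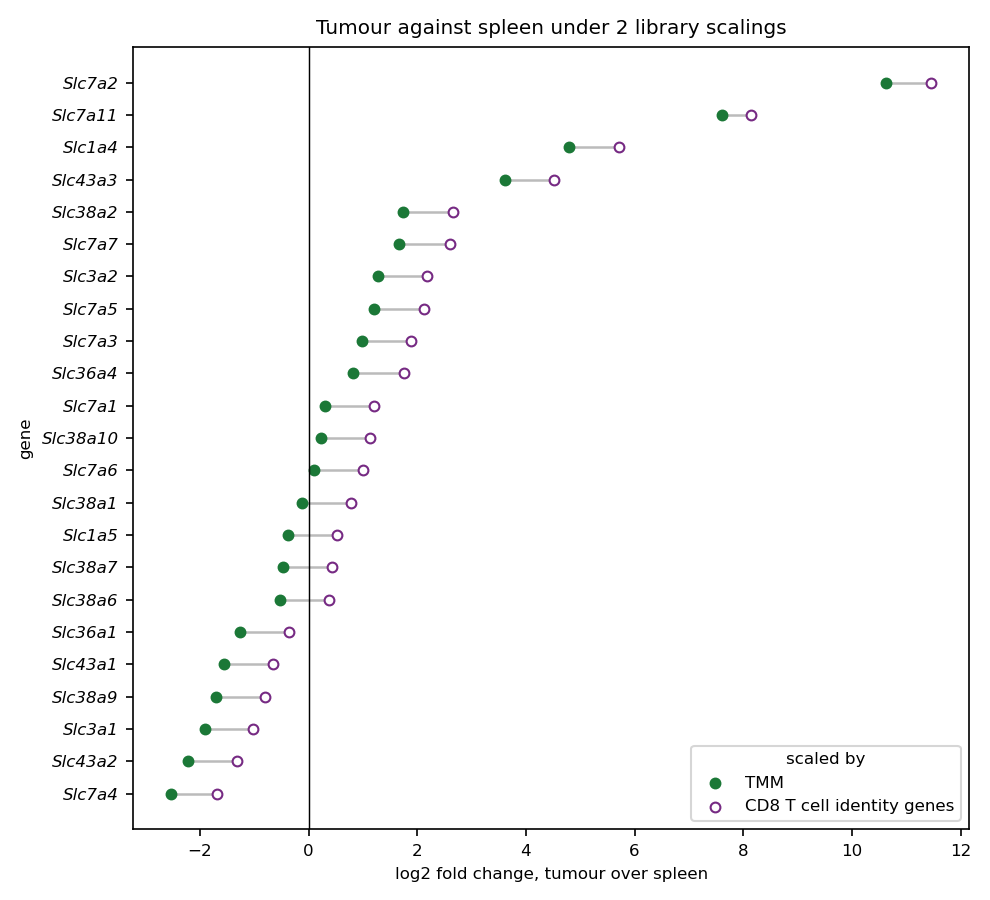
Log2 fold change of the 23 members tested between tumour and spleen libraries (x axis), with libraries scaled by TMM (filled) or by CD8 T cell identity genes (open). Nearly the same step of 0.90 moves every gene to the right, and Slc38a1, Slc1a5, Slc38a7 and Slc38a6 cross 0.

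Among the cationic carriers, Slc7a2 stood at 27.3, 42.0 and 38.6 CPM in tumour libraries, against 0.0482, 0 and 0 CPM in spleen libraries. The spleen libraries together held 1 count and the tumour libraries 2179. The ratio per scaled library was 2185 and rests on that 1 spleen count, so it is a description. The gene entered the test only through its tumour libraries, and its fitted log2 fold change of 10.64 depends on the prior count, so no p-value or interval is given. Slc7a1 stood at 128, 126 and 116 CPM in tumour libraries, against 99.2, 101 and 100.4 CPM in spleen libraries, a small rise without overlap (log2 fold change 0.30 ± 0.05 SE, edgeR adjusted p = 3.85e-04). Slc7a3, which differed most among cationic carriers in the cultures, was scarce here, at 1.19, 1.54 and 0.717 CPM in tumour and 0.964, 0.150 and 0.598 CPM in spleen libraries. These overlapped (edgeR adjusted p = 0.109), and without spleen replicate 1 the log2 fold change of 0.99 became 1.62 (adjusted p = 0.0340). Slc7a4 stood at 0.247, 0.0513 and 0.0956 CPM in tumour libraries, against 0.627, 0.849 and 0.898 CPM in spleen libraries, without overlap, on 8 counts in all tumour libraries. It was tested only through its spleen libraries, so its log2 fold change of -2.53 ± 0.50 SE is given as a description.

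The CD98 heavy chain rose with LAT1. Slc3a2 stood at 268, 249 and 242 CPM in tumour libraries, against 104, 104 and 107 CPM in spleen libraries (log2 fold change 1.27 ± 0.05 SE, edgeR adjusted p = 2.32e-08). Slc7a5 stood at 182, 181 and 159 CPM in tumour libraries, against 74.1, 79.1 and 71.9 CPM in spleen libraries (log2 fold change 1.21 ± 0.07 SE, edgeR adjusted p = 1.32e-07). The 2 chains differed by nearly the same factor, and neither gene's groups overlapped. Slc7a6 stood at 57.6, 55.4 and 55.7 CPM in tumour libraries, against 53.2, 50.5 and 54.2 CPM in spleen libraries, higher in every tumour library by a difference that was not called (log2 fold change 0.10 ± 0.05 SE, edgeR adjusted p = 0.112) but passed when scaled by CD8 identity genes (log2 fold change 1.00, adjusted p = 1.12e-05). Slc7a11 stood at 0.840, 1.18 and 1.58 CPM in tumour libraries and had no count in spleen libraries. Its tumour mean was 24.3-fold the level of 3 counts over the spleen group, a ratio without the counting error of the tumour counts. No p-value is given, as Slc7a11 too was tested only through its tumour libraries.

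Slc7a7 (y+LAT1), a light chain well known from macrophages, stood at 1.73, 3.85 and 2.97 CPM in tumour libraries, against 0.676, 0.949 and 1.05 CPM in spleen libraries. Every tumour library was above every spleen library (log2 fold change 1.67 ± 0.34 SE, edgeR adjusted p = 0.00129), and the myeloid marker sums that were higher in the same libraries are given above. In the cultures, where the myeloid sum was lower with ND-646, Slc7a7 averaged 1.35 CPM in ND-646 and 1.40 CPM in vehicle libraries. The part of myeloid cells in the level of Slc7a7 was not tested. Slc3a1 (rBAT), a heavy chain best known from kidney, stood at 0.216, 0.317 and 0.395 CPM in tumour libraries, against 1.46, 0.794 and 1.17 CPM in spleen libraries, without overlap. It too was tested only through spleen libraries, and its log2 fold change of -1.91 ± 0.39 SE is a description. Its neighbour on the opposite strand is Prepl, and its counts were not whole in any library, so its level is uncertain.

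In the SLC1 family the neutral exchangers moved in opposite directions. Slc1a4 stood at 39.8, 51.5 and 46.0 CPM in tumour libraries, against 2.07, 1.35 and 1.496 CPM in spleen libraries. Spleen libraries held almost none, and the tumour libraries were all far above them (log2 fold change 4.79 ± 0.16 SE, edgeR adjusted p = 8.04e-09). Slc1a5, the most abundant member per length in spleen, stood at 255, 221 and 254 CPM in tumour libraries, against 321, 309 and 315 CPM in spleen libraries. It was lower in all tumour libraries with TMM (log2 fold change -0.37 ± 0.06 SE, edgeR adjusted p = 3.64e-04) and higher when scaled by CD8 identity genes. Slc1a2 (GLT-1), a glutamate carrier with too few counts to be tested, had 24 counts over the tumour libraries and none over spleen. Its tumour mean was 8.04-fold the level of 3 counts over the spleen group, a ratio without the counting error of the tumour counts. Slc38a3, Slc1a3 and Slc38a4 had 9, 7 and 5 counts over the tumour libraries and none over spleen. Slc36a3, an untested PAT family member, went the other way, at 0, 0 and 0.0956 CPM in tumour libraries, against 0.0964, 0.649 and 0.648 CPM in spleen libraries, on 2 tumour and 28 spleen counts.

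The system A carrier Slc38a2 stood at 632, 713 and 643 CPM in tumour libraries, against 201, 202 and 193 CPM in spleen libraries. The groups were far apart (log2 fold change 1.74 ± 0.06 SE, edgeR adjusted p = 8.48e-09). The other system A carrier, Slc38a1, stood at 232, 209 and 216 CPM in tumour libraries, against 240.0, 234 and 241 CPM in spleen libraries. Every tumour library was lower, but it was not called with TMM (log2 fold change -0.12 ± 0.05 SE, edgeR adjusted p = 0.0521), was called lower by limma-voom (adjusted p = 0.0425), and was above 0, at 0.78, when scaled by CD8 identity genes. Slc38a10 stood at 184, 172 and 183 CPM in tumour libraries, against 162, 149.9 and 149 CPM in spleen libraries, higher in every tumour library (log2 fold change 0.23 ± 0.05 SE, edgeR adjusted p = 0.00305).

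The lysosomal carriers were lower in tumour libraries with TMM. Slc38a9 stood at 12.2, 11.1 and 12.6 CPM in tumour libraries, against 38.7, 38.2 and 39.6 CPM in spleen libraries (log2 fold change -1.70 ± 0.07 SE, edgeR adjusted p = 3.02e-08). Slc36a1 stood at 21.5, 18.7 and 22.1 CPM in tumour libraries, against 48.8, 51.4 and 48.7 CPM in spleen libraries (log2 fold change -1.26 ± 0.08 SE, edgeR adjusted p = 2.37e-07). Neither gene's groups overlapped, and both were also called lower when scaled by CD8 identity genes, at -0.80 and -0.36. Slc38a7 stood at 12.7, 11.2 and 12.7 CPM in tumour libraries, against 16.3, 18.5 and 15.8 CPM in spleen libraries, without overlap (log2 fold change -0.47 ± 0.10 SE, edgeR adjusted p = 0.00200). Slc38a6, not known as lysosomal, stood at 5.63, 5.80 and 5.83 CPM in tumour libraries, against 8.10, 8.44 and 8.28 CPM in spleen libraries, also without overlap (log2 fold change -0.52 ± 0.12 SE, edgeR adjusted p = 0.00226). Unlike Slc36a1, Slc36a4 rose in every tumour library, at 17.1, 23.5 and 21.6 CPM in tumour libraries, against 13.1, 9.99 and 12.0 CPM in spleen libraries (log2 fold change 0.83 ± 0.14 SE, edgeR adjusted p = 4.10e-04).

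The 3 SLC43 members went separate ways. Slc43a2 stood at 29.0, 24.6 and 25.7 CPM in tumour libraries, against 126, 124 and 119 CPM in spleen libraries. No tumour library came near the spleen libraries (log2 fold change -2.22 ± 0.07 SE, edgeR adjusted p = 4.62e-09), and the gene was also called lower when scaled by CD8 identity genes (-1.32). Slc43a1 stood at 1.24, 1.69 and 0.860 CPM in tumour libraries, against 3.18, 3.75 and 4.24 CPM in spleen libraries, without overlap (log2 fold change -1.56 ± 0.27 SE, edgeR adjusted p = 4.15e-04), a call that was lost when scaled by those genes (log2 fold change -0.65, adjusted p = 0.0800). Slc43a3 stood at 47.0, 53.9 and 48.9 CPM in tumour libraries, against 4.82, 3.30 and 4.14 CPM in spleen libraries, without overlap (log2 fold change 3.61 ± 0.12 SE, edgeR adjusted p = 7.86e-09). Counts of Slc43a2 were not whole in any library, as for Slc38a10.

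**Figure D4:**
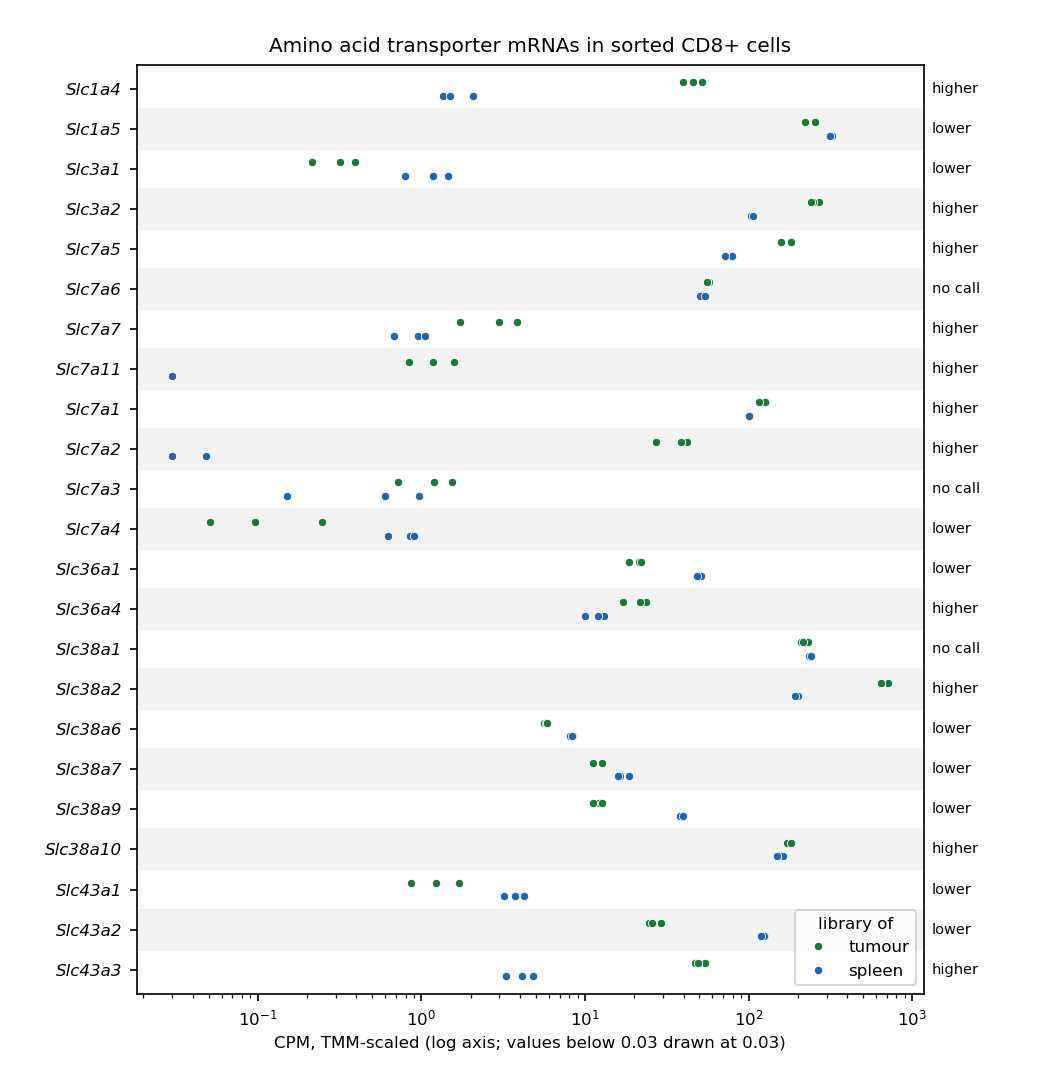
CPM of the 23 members tested between tumour and spleen, on a log axis, 1 point per library, with tumour above spleen in each row and the call of edgeR's test at the right. Slc7a2, Slc7a11, Slc1a4 and Slc43a3 lie far to the right in tumour libraries, while Slc43a2, Slc38a9 and Slc36a1 lie to the left.

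Tumour library 2 had the highest sum of fibroblast and fibrosarcoma markers, 22380.1 CPM, against 16780.4 and 20486 CPM in tumour libraries 1 and 3. It also had the lowest sum of CD8 identity genes, 5634 CPM, against 7534 and 6569.6 CPM. Of the 3 tumour libraries it was highest for Slc7a2, Slc1a4, Slc38a2, Slc43a3, Slc36a4, Slc7a7 and Slc7a3, and also for Slc43a1, which was called lower in tumours. It was lowest for Slc1a5, Slc38a1, Slc38a9, Slc36a1, Slc43a2, Slc38a7, Slc7a4 and Slc7a6, and also for Slc38a10, which was called higher. It lay between the other tumour libraries for Slc3a2, Slc7a5, Slc7a1, Slc7a11, Slc38a6 and Slc3a1. The part of connective tissue RNA in these levels was not tested. Without tumour replicate 2, 12 members rose and 10 fell. In that fit the log2 fold changes of Slc7a2, Slc1a4 and Slc38a2 were 10.54, 4.73 and 1.71.

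The promoters of members with the smallest p-values between tumour and spleen are those of Slc1a4, printed above, Slc43a2 and Slc43a3, of which the last had no entry in the table used. Slc43a2 has alternative starts, and neither window held TGATGNAAN or CACGTG on either strand.
Slc43a2 (chr11:75531444-75531743, plus strand): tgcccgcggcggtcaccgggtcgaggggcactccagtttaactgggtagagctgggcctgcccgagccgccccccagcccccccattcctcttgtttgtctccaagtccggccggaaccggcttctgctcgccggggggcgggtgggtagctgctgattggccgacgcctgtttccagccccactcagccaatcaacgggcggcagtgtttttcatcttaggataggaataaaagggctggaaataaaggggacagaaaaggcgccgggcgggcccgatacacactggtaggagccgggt
Slc43a2 (chr11:75531862-75532161, plus strand): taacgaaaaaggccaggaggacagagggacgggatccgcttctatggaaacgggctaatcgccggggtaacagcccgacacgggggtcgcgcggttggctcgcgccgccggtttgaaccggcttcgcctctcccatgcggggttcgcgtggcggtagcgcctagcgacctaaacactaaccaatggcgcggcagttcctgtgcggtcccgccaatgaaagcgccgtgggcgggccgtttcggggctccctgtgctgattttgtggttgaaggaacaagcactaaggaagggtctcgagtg

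By the same lists, 11 amino acid carriers outside the 6 families rose and 9 fell of 24 tested (median log2 fold change 0.17). Slc6a19, a neutral amino acid carrier best known from gut and kidney, stood at 1.02 ± 0.244 CPM in tumour and 65.5 ± 3.30 CPM in spleen libraries (SD, n = 3 each). In the amino acid response through ATF4, 20 rose and 0 fell of 21 tested (median log2 fold change 1.63), with the transcription factors Cebpb at 3.76 ± 0.10 (SE; edgeR adjusted p = 2.71e-09) and Atf4 at 1.63 ± 0.07 (SE; edgeR adjusted p = 1.95e-08). Of enzymes of amino acid breakdown and synthesis, 23 rose and 6 fell of 34 tested (median log2 fold change 0.71). Odc1 stood at 706 ± 83.7 CPM in tumour and 73.6 ± 1.38 CPM in spleen libraries (SD, n = 3 each), and Bcat1, which transaminates branched-chain amino acids in the cytosol, at 50.9 ± 6.48 CPM in tumour and 3.67 ± 0.0722 CPM in spleen libraries (SD, n = 3 each).

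Among mTORC1 and lysosomal sensing genes, 17 rose and 22 fell of 43 tested (median log2 fold change -0.14). Sesn1, a sestrin, was at -1.86 ± 0.08 (SE; edgeR adjusted p = 4.05e-08). Of the aminoacyl-tRNA synthetases, 14 rose and 4 fell of 22 tested (median log2 fold change 0.47), with the alanyl enzyme Aars at 1.31 ± 0.06 (SE; edgeR adjusted p = 2.79e-08) and the lysyl enzyme Kars at 0.98 ± 0.05 (SE; edgeR adjusted p = 4.90e-08). Of the regulators, 10 rose and 7 fell of 20 tested (median log2 fold change 0.24), with Hif1a at 2.27 ± 0.06 (SE; edgeR adjusted p = 2.41e-09) and the ubiquitin ligase Nedd4 at 2.98 ± 0.09 (SE; edgeR adjusted p = 6.47e-09). Each of these lists moved beside the connective tissue and myeloid markers given above, whose part was not tested.

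The 2 comparisons share no library. Of the 21 members tested in both, 8 were called higher in both: Slc1a4, Slc36a4, Slc38a2, Slc3a2, Slc43a3, Slc7a1, Slc7a11 and Slc7a5. Of these, Slc7a11 was tested in tumours only through the libraries where it was high, and in the cultures mainly so. Among the 13261 genes tested in both, 11.5% were called higher in both. Slc38a6, Slc38a7 and Slc43a2 were higher with ND-646 and lower in tumours, a combination held by 14.9% of all genes. Slc38a10 was the reverse, as were 14.6% of all genes. No member was called lower in both, against 8.30% of all genes. Slc7a6 was called in neither, as were 8.94% of all genes. The direction of Slc38a6 and Slc38a7 in tumours depended on the scaling, as given above. The scarce arginine carriers had their highest level in different groups. Slc7a3 averaged 36.2 CPM in ND-646, 10.7 in vehicle, 1.15 in tumour and 0.571 in spleen libraries. Slc7a2 averaged 0 CPM in ND-646, 0.0107 in vehicle, 35.98 in tumour and 0.0161 in spleen libraries.

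**Figure D5:**
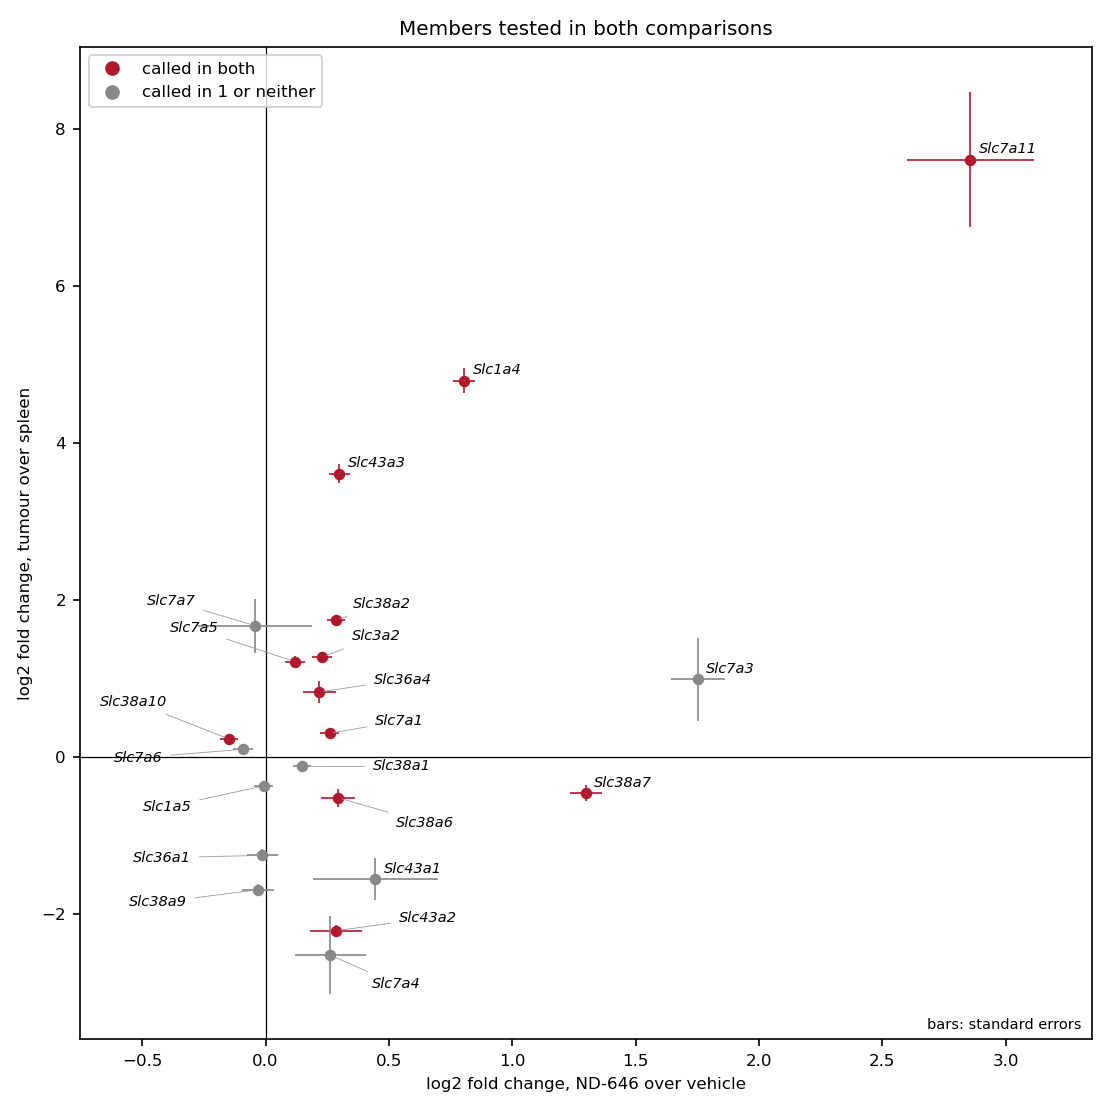
Log2 fold change of the 21 members tested in both comparisons, ND-646 over vehicle (x axis) and tumour over spleen (y axis), with bars for standard errors and red for members called in both. Slc7a11, Slc1a4 and Slc43a3 lie to the upper right, Slc38a7 and Slc43a2 to the lower right, and no member lies far to the left, while the y value of Slc7a11 depends on the prior count because spleen libraries held none.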

How the data were processed

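The authors deposited estimated counts per gene symbol, 1 table per experiment, per the file headers. STAR, Salmon and DESeq2 appear in the submitters' processing notes, with no version and no step assigned. The build, the annotation and the strand setting are not given in the sources. About 9% of values were not whole (tolerance 1e-06), and totals differed between columns. All columns were matched to a sample by its title. No replicate pair was as close as sampling noise alone allows (chi-square per degree of freedom 2.33 to 18.3). ND-646 libraries 1 and 4, and 2 and 3, were nearer each other than across.

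Counts were rounded and each table was fitted alone in edgeR 4.0.16 (R 4.3.3) after filterByExpr and TMM scaling, by the quasi-likelihood test (robust), with p-values adjusted over all genes tested by Benjamini-Hochberg and a threshold of 0.05. Standard errors were derived from the F statistic. CPM are the deposited counts per scaled library of 1000000. Lengths are those of the longest APPRIS principal transcript in GENCODE M21, which may not be the authors' annotation. Limits cover counting error only. Ratios against a group without counts leave out the counting error of the other group. On simulated counts (5 draws), the culture comparison (14251 genes) recovered 54.4% of genes changed 1.25-fold and 92.4% changed 2-fold, with 9.32% false calls. The tumour comparison (15042 genes) recovered 25.6% and 76% at those folds, with 6.95% false calls. In each draw 50 genes were changed at each fold of 1.25, 1.5, 2 and 4, and false calls exceeded the nominal rate. Far larger shares of genes were called in the data, so this share of false calls may not carry over to them.

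Values per library are given where a group averaged at least 10 CPM or a called log2 fold change was at least 1 in size. Of each pathway list, the 2 smallest p-values are named, except for genes not reported here. Cd8a, Col1a1 and the untested members named were chosen after values were seen. Members and lists were chosen with earlier results of these data known. Alternatives were RLE factors, CD8 identity scaling, DESeq2 1.42.0, limma-voom (limma 3.58.1), a minimum of 1 CPM or no filter, a block for the replicate number, and each library left out. Leaving out ND-646 libraries in pairs was chosen after seeing the data. Figures were drawn with matplotlib 3.10.9.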

Additional observations from a re-analysis of the deposited data

Results flagged for a closer look

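Each of 44 sets of 4 values (22 members in ND-646 and in vehicle libraries) was checked for a library far from the other 3, and chance flags about 1 in 20 such sets. There were 3. Slc38a2 in ND-646 library 4 stood at 337 CPM, with the other ND-646 libraries between 313 and 316. Slc7a1 in ND-646 library 1 stood at 225 CPM, with the others between 243 and 245. Slc7a5 in vehicle library 3 stood at 523 CPM, with the others between 562 and 569, and without that library Slc7a5 was no longer called.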

How the results depend on the processing

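Of the ND-646 calls, 13 members were higher under RLE factors, CD8 identity scaling, both other filters, the replicate block, DESeq2 and limma-voom, and 12 to 13 when 1 library was left out (Slc43a2 was lost in 5 of these 8 fits and Slc7a5 in 2, while Slc43a1 joined in 1). The count of members lower was 1, Slc38a10, and became 2 with RLE factors or a minimum of 1 CPM (Slc7a6 added), 3 without a low-count filter (Slc1a2 and Slc3a1 added), 1 to 3 when 1 library was left out (Slc1a2 or Slc7a6 added), 2 without ND-646 libraries 1 and 4 (Slc3a1), and 3 without libraries 2 and 3 (Slc3a1 and Slc38a9). Between tumour and spleen, CD8 identity scaling gave 10127 genes higher and 1972 lower, against 6551 and 6051, and 5 members lower against 9. It turned the direction of Slc1a5 (0.52), Slc38a1 (0.78), Slc38a6 (0.38) and Slc38a7 (0.43), as its construction shifts all genes one way. Leaving out 1 library gave 11 to 12 members higher and 9 to 11 lower. Same-numbered libraries of the groups did not deviate together (r = -0.121 to 0.0659). With so few libraries this cannot show whether the numbers pair them, which the labels do not state. With the replicate block, 4163 genes were higher and 3701 lower with ND-646 (13 and 1 members), and 6504 higher and 5988 lower in tumours (11 and 9 members). For the 18 members tested in neither table, a count of 0 allows up to 0.0878 to 0.154 CPM per library.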

Other observations

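ND-646 libraries 1 and 4 differed from libraries 2 and 3 for some members. Slc7a3 stood at 39.4 and 42.2 CPM in libraries 1 and 4, and at 28.9 and 34.4 CPM in libraries 2 and 3. Slc38a7 stood at 39.6 and 39.9 CPM in libraries 1 and 4, and at 35.1 and 34.2 CPM in libraries 2 and 3. The arginine sensor Slc38a9 was the other way round, as given above, and without libraries 2 and 3 it was called lower with ND-646 (log2 fold change -0.17, edgeR adjusted p = 0.0126). The labels name no batch that separates these libraries. Slc7a3 and Slc38a7 were called higher both without libraries 1 and 4 and without libraries 2 and 3.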
